A study of Mus musculus with 12 samples.

Results

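A set of 10 imprinted genes was followed in mouse chronic proximal thoracic aortic aneurysms. They are the 10 members named for this group among the 30130 genes listed: Dio3, Dlk1, Meg3, Rian and Mirg of the Dlk1-Dio3 domain, and Igf2, H19, Cdkn1c, Peg3 and Plagl1 from other imprinted domains. They are genes known to be imprinted and to act in growth, and they were chosen by name with their measured aneurysm against sham values, Dio3 first among them, already in view. The aneurysm against sham values of all 10 genes are therefore given as a description, with no p. How many of them passed the threshold is stated only as a count beside the share of all genes, and supports nothing. Of the 10 genes, 9 passed the filter on low values (1 or more in at least 5 libraries) and Igf2 did not.

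RNA was sequenced from whole tissue in 12 libraries. The 7 aneurysm libraries (cPTAA 2, 3, 4, 6, 7, 9 and 12) came from male C56BL/6J mice, as the labels spell the strain, in which elastase was applied around the aorta and BAPN was given. Elastase degrades elastic fibres and BAPN inhibits the lysyl oxidases that crosslink collagen and elastin. The 5 sham libraries (sham 1, 5, 8, 10 and 11) came from male mice of the same strain given sham surgery and normal water. The effects of elastase, BAPN and the surgery that goes with them cannot be told apart in this design. No source used here gives the age, the time after surgery or the mouse behind each library. The labels number the samples without naming animals, so every p-value measures the spread between these samples.

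An imprinted gene is expressed only or mainly from the allele of 1 parent, at least in some tissues. In the Dlk1-Dio3 domain the paternal allele expresses the protein-coding genes Dlk1, Rtl1 and, in part, Dio3, and the maternal allele expresses the noncoding RNAs Meg3, Rian and Mirg. Igf2 and H19 share enhancers and are expressed from opposite parental alleles. Many of these genes are active in fetal growth and are turned down after birth. The reads carry no allele information here, so the values are totals over both alleles.

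Values are normalised read counts, which are whole reads divided by a factor for each library. Fold changes are differences of log2(value + 1), cPTAA minus sham, with SE, from limma across all tested genes. In that fit 23.9% of the 21415 tested genes passed an adjusted p of 0.05, 12.9% as higher and 11.1% as lower, and 13.0% had no overlap between the groups. The median log2 fold change over all tested genes was -0.054. Depth ranged from 14078885 to 17493428 reads. As a check of the labelled tissue, the smooth muscle markers Myh11 and Acta2 were abundant. Myh11 was lower in cPTAA, at 34217 ± 18171 against 74348 ± 9771 in sham. Acta2 was at 122701 ± 51075 in cPTAA and 141220 ± 23075 in sham. Tagln, also a smooth muscle marker, was much less abundant, between 235 and 1491 in cPTAA and between 446 and 685 in sham. Of the 6 smooth muscle markers 2 were called lower and 0 higher. Summed levels of 5 cardiomyocyte markers were 12206, 15934 and 70404 in cPTAA 6, 7 and 9, between 1121 and 1598 in the other 4 aneurysms, 3675 in sham 8 and between 1017 and 3342 in the other 4 sham libraries. Most of the sum in cPTAA 6, 7 and 9 was Myh6 (5784, 10200 and 43557) and Tnnt2 (6078, 5213 and 26599). Nppa was highest in sham 10 (70.5), and Myl7 and Myl4 in sham 8 (369 and 588). The fit was repeated without cPTAA 6, 7 and 9 and sham 8, which earlier results of these data had singled out. Sham 8 held more Col2a1, a chondrocyte marker (648), and Msln, a mesothelial marker (2597). The other 4 sham libraries held 7.38 to 44.2 and 129 to 303. Sham tissue also held much brown fat RNA: the 8 brown adipocyte markers had a score (mean log2(value + 1)) of 11.49 ± 0.53 in sham (SD, n = 5) and 9.36 ± 0.92 in cPTAA (SD, n = 7).

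The sequence in front of Dio3 is shown first, with that of its antisense neighbour Dio3os, because these were the genes of the domain with the largest differences, and that of Peg3, whose levels did not overlap in the opposite direction. Each window runs from 250 bases before to 50 bases after the annotated start (RefSeq, build GRCm38.p6). Capitals mark the motifs searched on both strands.
Dio3, chr12:110278980-110279279, plus strand: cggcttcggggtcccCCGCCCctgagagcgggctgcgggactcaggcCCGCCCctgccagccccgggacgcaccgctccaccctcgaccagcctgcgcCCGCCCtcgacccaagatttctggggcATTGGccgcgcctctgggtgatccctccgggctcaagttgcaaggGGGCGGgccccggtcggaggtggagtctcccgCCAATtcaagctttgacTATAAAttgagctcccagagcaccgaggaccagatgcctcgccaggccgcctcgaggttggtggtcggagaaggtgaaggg
Dio3os, chr12:110278019-110278318, minus strand: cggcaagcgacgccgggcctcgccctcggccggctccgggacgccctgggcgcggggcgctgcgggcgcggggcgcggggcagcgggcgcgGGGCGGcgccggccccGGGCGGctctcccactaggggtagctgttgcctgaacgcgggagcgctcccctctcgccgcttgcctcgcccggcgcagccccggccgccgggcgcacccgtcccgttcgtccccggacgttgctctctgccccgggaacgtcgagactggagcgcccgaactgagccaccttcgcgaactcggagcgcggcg
Peg3, chr7:6730370-6730669, minus strand: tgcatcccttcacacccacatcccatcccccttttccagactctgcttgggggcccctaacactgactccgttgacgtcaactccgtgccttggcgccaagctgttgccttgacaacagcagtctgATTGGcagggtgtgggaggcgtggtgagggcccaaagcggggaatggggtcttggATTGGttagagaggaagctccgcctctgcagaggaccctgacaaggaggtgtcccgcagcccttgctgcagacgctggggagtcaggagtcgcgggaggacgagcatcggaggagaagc
The Dio3 window held TATAAA starting 31 bases before the start, CCAAT or its complement at 125 and 48 bases before it, and GGGCGG or its complement at 235, 203, 152 and 80 bases before it. TATAAA occurred in 13.6% of all 32851 windows of that length, CCAAT in 37.4% and GGGCGG in 35.7%. The Dio3os window held 2 GGGCGG and no TATAAA, and the Peg3 window held 2 CCAAT. No capitals overlapped. The other letters searched were TGANTCA (an AP-1 site, in 7.81% of windows), AGGTCA (a thyroid receptor half-site, 16.3%), ACGTG (a HIF core, 19.6%), GTCTAGAC (a Smad box, 0.213%) and GCCATNTT (a YY1 core, 6.05%), and these 3 windows held none of them. The Dio3 window had 25 CpG sites, the Dio3os window 53 and the Peg3 window 13, where all windows had a median of 7 and quartiles of 3 and 20. Windows were found for 8 of the 10 genes.

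Some host transcripts counted here carry microRNA hairpins in their exons. By matching RefSeq hairpins to the GENCODE M21 transcripts, H19 carries miR-675 and Dio3os carries miR-1247. Meg3 carries miR-770, and Mirg carries miR-134, miR-377, miR-410 and miR-485. GENCODE M21 also places Mir1906-1 wholly within Meg3 exons, although the RefSeq table used here lists only its mature form. The mature forms of the hosts that differed most are shown with the seed, bases 2 to 8, in capitals.
miR-675-5p: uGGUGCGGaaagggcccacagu
miR-675-3p: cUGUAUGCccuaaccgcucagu
miR-1247-5p: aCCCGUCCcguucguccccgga
miR-1247-3p: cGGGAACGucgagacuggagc
These 4 seeds differ from each other, and 0 other mature miRNAs of the RefSeq table share any of them. The libraries were made from messenger RNA, so the values below are of the host transcripts and not of the mature miRNAs.

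Dio3 encodes the type 3 deiodinase, the selenoenzyme that inactivates thyroid hormone, and it is high in fetal tissue and placenta. Among sham libraries Dio3 had no read in 3 libraries (sham 1, 5 and 11) and 1 read each in sham 8 (1.02) and sham 10 (1.09). In the aneurysms it was at 15.7 in cPTAA 9, 26.6 in cPTAA 6, 32.8 in cPTAA 7, 36.3 in cPTAA 2, 48.5 in cPTAA 3, 71.3 in cPTAA 4 and 163 in cPTAA 12. The groups did not overlap, and every aneurysm library held Dio3 reads while sham was at or near 0. The means were 56.4 ± 50.4 (SD, n = 7) against 0.421 ± 0.577 (SD, n = 5), from 423 reads in cPTAA and 2 in sham. Total reads divided by the summed library factors gave a ratio of 134.5 between the groups. Its exact 95% interval was 37.01 to 1114 and covers counting error only. On the log2(value + 1) scale the difference was 5.06 ± 0.52. That fitted value depends on how sham values near 0 are treated, and it was 7.35 with a pseudocount of 0.1, 6.68 by edgeR and 7.02 by DESeq2.

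Dio3os, a noncoding RNA transcribed from the opposite strand next to Dio3, rose. In cPTAA it was at 35.95 in cPTAA 3, 36.3 in cPTAA 9, 37.1 in cPTAA 2, 40.02 in cPTAA 4, 60.8 in cPTAA 7, 77.9 in cPTAA 6 and 144 in cPTAA 12. In sham it was between 0.974 (sham 5) and 6.33 (sham 1). All 7 aneurysm values lay above all 5 sham values (log2 fold change 3.84 ± 0.46, limma adjusted p = 3.92e-05). With brown adipocyte markers in the model it did not pass (2.50 ± 0.71, adjusted p = 0.0613). The exons of the pair share no bases in GENCODE M21, but no source used here states the strand setting of the counting. Per kilobase of exon the levels in cPTAA were 27.8 ± 24.8 for Dio3 and 36.7 ± 23.5 for Dio3os (SD, n = 7). These means differ by less than the spread between libraries. Both genes were measured in the same libraries, and their difference within libraries was not tested. The library order was not the same, since cPTAA 6 was second for Dio3os and sixth for Dio3.

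**Figure D1:**
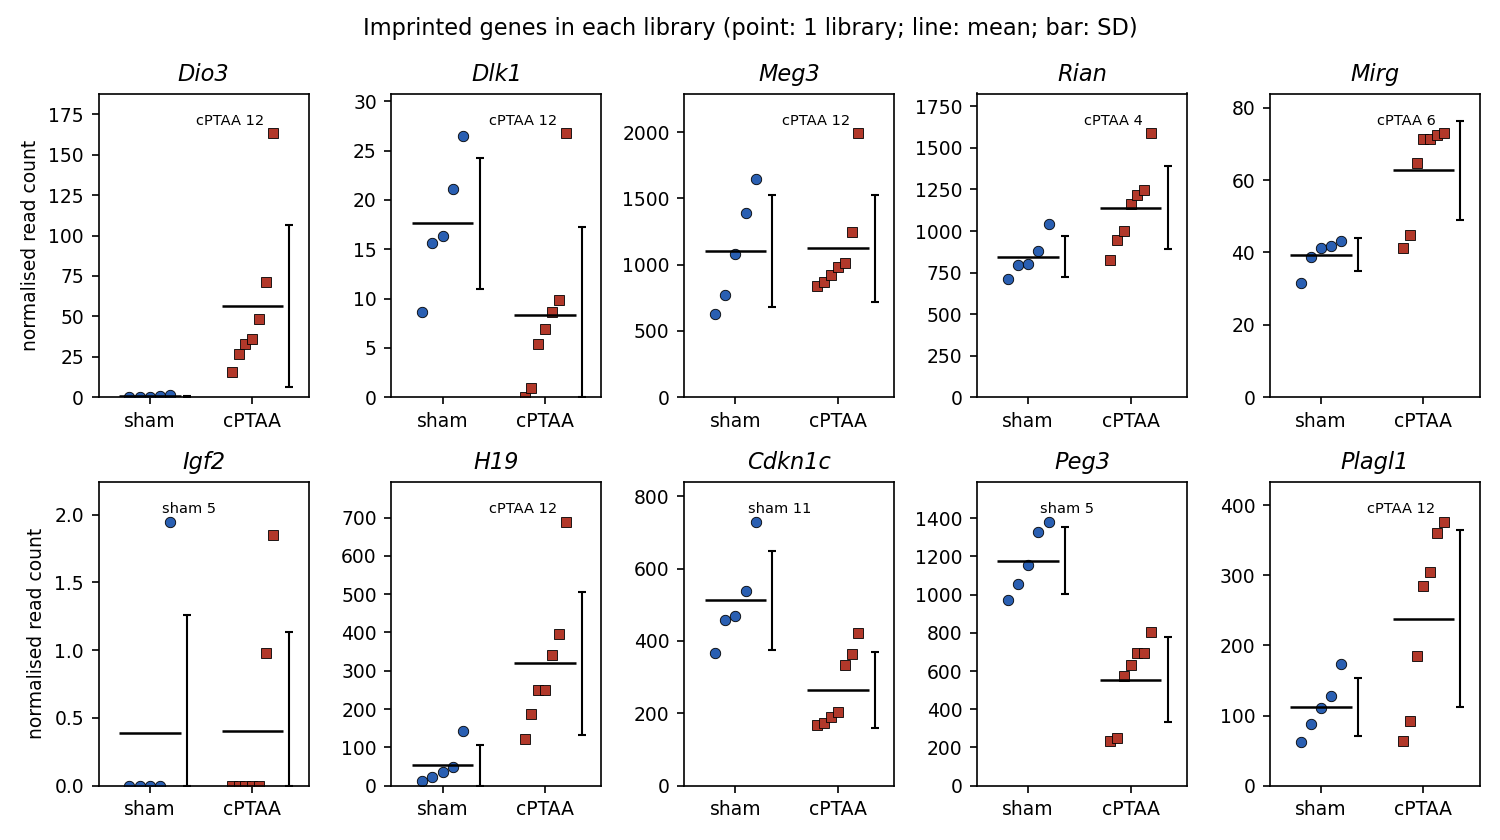
Normalised read counts (y axis, from 0) of the 10 imprinted genes in 5 sham (circles) and 7 cPTAA (squares) libraries, with the mean as a line and the SD as a bar that stops at 0. Dio3 and Peg3 separate the groups completely, Igf2 is at or near 0 throughout, and cPTAA 12 is the highest library for Dio3, Dlk1, Meg3, H19 and Plagl1.

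Dlk1, a transmembrane protein related to Notch ligands that keeps preadipocytes from differentiating, was low in all libraries and lower in most aneurysms. It was at 0 in cPTAA 4, 0.966 in cPTAA 7, 5.39 in cPTAA 3, 6.86 in cPTAA 9, 8.63 in cPTAA 2, 9.86 in cPTAA 6 and 26.8 in cPTAA 12. Sham values were 8.68, 15.6, 16.3, 21.1 and 26.5, so that 5 of 7 aneurysms lay below every sham library and cPTAA 12 lay above every one. The log2 fold change was -1.55 ± 0.69 over all libraries and -1.91 without cPTAA 12. Dlk1 thus stood on the other side of 0 from Dio3, another coding gene of the domain that is in part paternally expressed. The Dlk1 difference was not called over all libraries. Rtl1, the retrotransposon-derived coding gene between them, was low, at 4.32 ± 3.46 against 2.09 ± 2.37 (log2 fold change 0.76 ± 0.62, adjusted p = 0.417).

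Meg3, the maternal noncoding RNA at the head of the cluster, was among the abundant genes of the group in both conditions. Sham libraries were at 626, 769, 1084, 1392 and 1648, and cPTAA libraries at 837, 869, 924, 986, 1011, 1245 and 1993. The groups lay over each other, with a log2 fold change of 0.05 ± 0.26. Rian, which hosts a large cluster of small nucleolar RNAs, was at 828 in cPTAA 9, 943 in cPTAA 2, 1001 in cPTAA 3, 1161 in cPTAA 6, 1216 in cPTAA 7, 1245 in cPTAA 12 and 1589 in cPTAA 4. In sham it was between 711 and 1043, and 4 of 7 aneurysms lay above every sham library (log2 fold change 0.41 ± 0.16). Mirg, the miRNA host at the end of the cluster, was between 31.6 and 43.1 in sham. In cPTAA it was at 41.3 and 44.9 in cPTAA 3 and 2 and between 64.6 and 73.0 in the other 5 libraries, so that 6 of 7 lay above every sham library (log2 fold change 0.64 ± 0.23). Without cPTAA 6, 7 and 9 and sham 8 the log2 fold change was 0.56 for Rian, 0.46 for Mirg and 0.27 for Meg3. Per kilobase of exon the levels in cPTAA were 62.1 ± 22.4 for Meg3, 62.6 ± 13.7 for Rian and 8.60 ± 1.88 for Mirg (SD, n = 7). The means of Meg3 and Rian differ by less than the spread between libraries, and their difference within libraries was not tested.

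The order of the genes along chromosome 12 sets these values side by side. From the flanking genes through the domain, only Dio3os passed the threshold among the 12 other genes of the region that were tested (8.33%, beside 23.9% of all tested genes), and 0 passed as lower. Their median log2 fold change was 0.02. The number higher was 2 without cPTAA 9 (Ppp2r5c added), 3 without cPTAA 6, 7 and 9 and sham 8 (Ppp2r5c and Rtl1, the latter at 1.67 ± 0.58) and 0 with brown adipocyte markers in the model. Ppp2r5c and Dync1h1, which follow Dio3, had log2 fold changes of 0.24 ± 0.11 and 0.01 ± 0.18 (adjusted p = 0.129 and 0.977). On the other side Begain, Wdr25 and Wars had 0.66 ± 0.55, -0.04 ± 0.20 and 0.03 ± 0.21 (adjusted p = 0.431, 0.918 and 0.937).

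**Figure D2:**
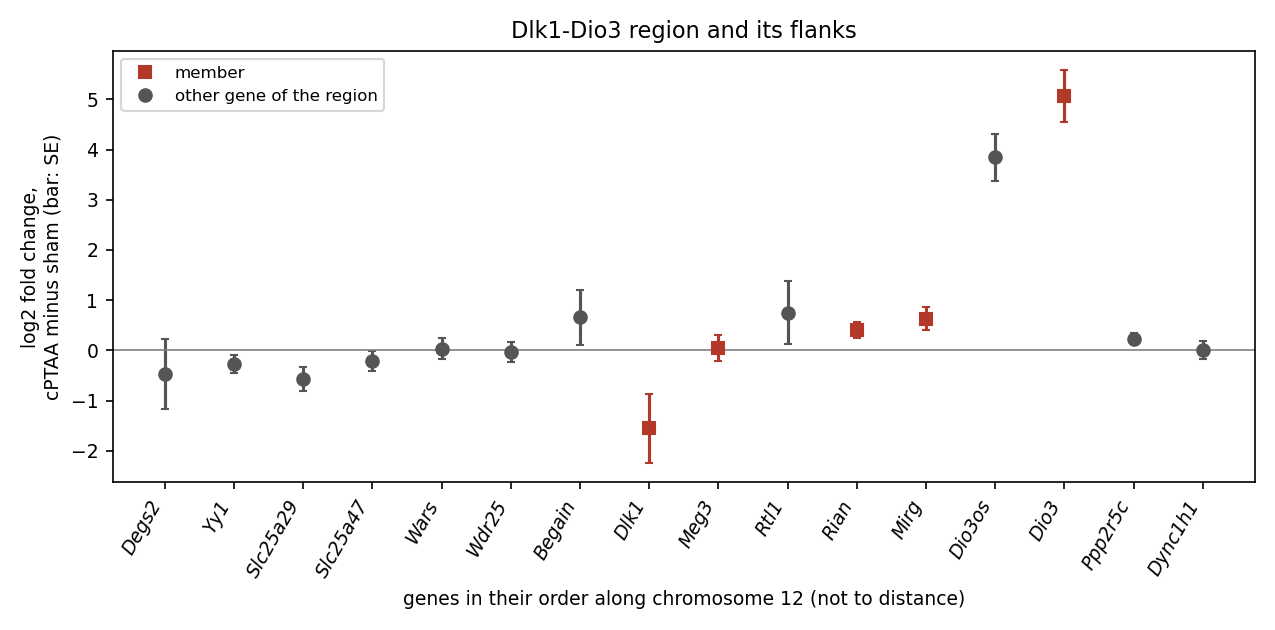
Log2 fold change, cPTAA minus sham, with SE (y axis) for 16 genes in their order along chromosome 12 (x axis, not to distance), with the members as red squares. Dio3os and Dio3 stand at 3.84 and 5.06, while the other 14 genes lie between -1.55 (Dlk1) and 0.76 (Rtl1).

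Igf2, the fetal growth factor, had almost no reads. It was listed at 0 in 4 of 5 sham and 5 of 7 cPTAA libraries, with 2 reads in sham and 3 in cPTAA in all, so no fold change is given. In GENCODE M21, 62.8% of the exon bases of Igf2 are shared with Gm49394, a gene on the same strand that is no row of the table. No source used here says how the counting treated reads in shared bases. H19, the noncoding RNA next to Igf2, was well covered. Sham libraries were at 13.02 (sham 10), 22.1 (sham 1), 34.9 (sham 11), 49.7 (sham 5) and 144 (sham 8). Aneurysm libraries were at 123 in cPTAA 4, 186 in cPTAA 6, 249.9 in cPTAA 3, 250.3 in cPTAA 2, 341 in cPTAA 7, 397 in cPTAA 9 and 689 in cPTAA 12. Only cPTAA 4 and sham 8 crossed, and the means were 320 ± 187 (SD, n = 7) against 52.7 ± 52.7 (SD, n = 5). The log2 fold change was 2.86 ± 0.51, and 3.34 without sham 8.

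Igf2 partners moved unevenly. The receptor gene Igf2r, itself imprinted, which clears IGF2 from the cell surface, stood at 2058 ± 712 in cPTAA and 1603 ± 228 in sham, a log2 fold change of 0.28 ± 0.25 (adjusted p = 0.456). It passed without cPTAA 6, 7 and 9 and sham 8 (0.68 ± 0.14). Igf1r had a log2 fold change of -0.15 ± 0.20 (adjusted p = 0.645). Insr, the insulin receptor, fell, from 2311 ± 467 in sham to 1151 ± 273 in cPTAA (log2 fold change -1.01 ± 0.19, adjusted p = 0.00138), and Igf1 rose, at 2442 ± 684 against 825 ± 297 (log2 fold change 1.58 ± 0.22, adjusted p = 0.000128). Ctcf, whose product binds the control region between Igf2 and H19, was at 956 ± 181 against 907 ± 77.9 (adjusted p = 0.827), while its paralogue Ctcfl fell, from 79.3 ± 21.9 in sham to 14.9 ± 6.23 in cPTAA (log2 fold change -2.43 ± 0.38, adjusted p = 0.000303). Of the 9 tested genes of this list, 1 rose and 2 fell (33.3%, beside 23.9% of all tested genes), and with brown adipocyte markers in the model only Ctcfl passed (-2.68 ± 0.67, adjusted p = 0.0427). In that fit Insr was at -1.10 ± 0.34 and Igf1 at 1.24 ± 0.38, with larger SEs than before.

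Cdkn1c encodes p57, a cyclin-dependent kinase inhibitor that restrains fetal growth. Sham libraries were at 367, 459, 468, 537 and 730. Aneurysm libraries were at 167 in cPTAA 2, 174 in cPTAA 3, 188 in cPTAA 4, 204 in cPTAA 12, 333 in cPTAA 7, 364 in cPTAA 6 and 421 in cPTAA 9. Of the 7, 6 lay below every sham library, and cPTAA 9 lay within the sham range. The log2 fold change was -1.01 ± 0.26 over all libraries and -1.41 ± 0.20 without cPTAA 6, 7 and 9 and sham 8. In GENCODE M21, 30.7% of its exon bases are shared with Gm44732 on the opposite strand.

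The other cyclin-dependent kinase inhibitors differed in direction. Cdkn2a and Cdkn2b, neighbours that encode inhibitors of the retinoblastoma pathway kinases, rose. Cdkn2a was at 99.3 ± 44.5 in cPTAA and 6.18 ± 5.65 in sham, a log2 fold change of 4.07 ± 0.50 (adjusted p = 4.53e-05). Cdkn2b was at 269 ± 65.5 in cPTAA and 75.1 ± 9.63 in sham, a log2 fold change of 1.79 ± 0.21 (adjusted p = 2.88e-05). Cdkn2d rose as well (log2 fold change 0.51 ± 0.14, adjusted p = 0.0178) and Cdkn2c fell (log2 fold change -0.67 ± 0.16, adjusted p = 0.00646). The closest relatives of Cdkn1c did not pass, with log2 fold changes of -0.30 ± 0.29 for Cdkn1a and -0.21 ± 0.14 for Cdkn1b (adjusted p = 0.497 and 0.300). The proliferation markers Mki67, Top2a, Ccnb1 and Cdk1 were higher in all 7 aneurysms than in all 5 sham libraries, with a score of 7.31 ± 0.81 against 4.40 ± 0.89. Their part in the cell cycle inhibitor values was not tested.

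Peg3, a paternally expressed zinc finger protein of mesenchymal and muscle progenitors, was lower in every aneurysm. Sham libraries were at 969.8, 1054, 1152, 1330 and 1382, and cPTAA libraries at 236 (cPTAA 9), 249.4 (cPTAA 6), 576 (cPTAA 4), 629 (cPTAA 3), 695 (cPTAA 12), 696 (cPTAA 2) and 802 (cPTAA 7). The groups did not overlap, and cPTAA 6 and 9 were far below the other aneurysms. The log2 fold change was -1.21 ± 0.30, and -0.92 ± 0.12 without cPTAA 6, 7 and 9 and sham 8. Plagl1, a zinc finger regulator of an imprinted gene network, was at 63.7 in cPTAA 9 and 92.7 in cPTAA 6, within the sham range of 62.9 to 173. The other 5 aneurysms, at 185, 285, 305, 360 and 377, lay above every sham library. Its log2 fold change was 0.91 ± 0.43 over all libraries, 1.18 without cPTAA 9 and 1.62 ± 0.27 without cPTAA 6, 7 and 9 and sham 8. The 2 aneurysms lowest in both Peg3 and Plagl1, cPTAA 6 and 9, were among the 3 with high summed cardiomyocyte markers, mostly Myh6 and Tnnt2. The third, cPTAA 7, had the highest Peg3 value of the aneurysms. The low values of cPTAA 6 and 9 were not limited to these members. Both were also the lowest aneurysms in Igf2r (1092 and 1070, the others 2029 to 2732). In Ncor1 they were lowest as well (1090 and 1069, the others 2101 to 2792). In Cdkn1c they were the highest aneurysms (364 and 421). The part of cardiomyocyte RNA, or of any other property of these libraries, in these values was not tested.

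Across the group, 2 of the 9 tested genes were called higher (Dio3 and H19) and 2 lower (Cdkn1c and Peg3), beside 23.9% of all tested genes. Their median log2 fold change was 0.41. Nothing is read from this count, because the genes were chosen with this contrast known. The count higher was 4 without cPTAA 9, without cPTAA 6, 7 and 9 and sham 8 and by DESeq2, 3 without cPTAA 2, cPTAA 3 or sham 8 and by edgeR, and 2 in the other leave-outs. The count lower was 3 without cPTAA 12.

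Markers of several cell types differed between the groups. Over all tested genes 12.9% were called higher and 11.1% lower. Of the brown adipocyte markers 7 of 8 were called lower in cPTAA. Their summed levels were 2687 to 44938 in cPTAA and 33265 to 102254 in sham. Of the macrophage markers 6 of 6 were called higher, of the fibroblast markers 3 of 7 and of the chondrocyte markers 2 of 4. Of the 4 activated fibroblast markers 2 were called higher and 1 lower. Called lower were 4 of 6 white adipocyte, 2 of 6 smooth muscle and 3 of 5 endothelial markers. So were 2 of 4 mesothelial and 1 of 6 Schwann and nerve markers. Of the cardiomyocyte markers 0 of 5 passed in either direction. The part of these other cell types in the members' values was not tested. For brown adipocytes the fit was repeated with the score as a covariate. That score differs between the groups itself, and the median SE over the tested genes grew from 0.302 to 0.482. In this fit the log2 fold change of Dio3 went from 5.06 ± 0.52 to 3.11 ± 0.69, and 1 member was called higher and 0 lower. H19 went to 1.47 ± 0.80, Cdkn1c to -0.52 ± 0.43, Peg3 to -1.79 ± 0.50, Mirg to 0.63 ± 0.41, Rian to -0.02 ± 0.24, Plagl1 to -0.55 ± 0.61, Dlk1 to -3.07 ± 1.14 and Meg3 to -0.76 ± 0.38. In whole tissue, fewer cells of a type and less RNA per cell cannot be told apart.

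**Figure D3:**
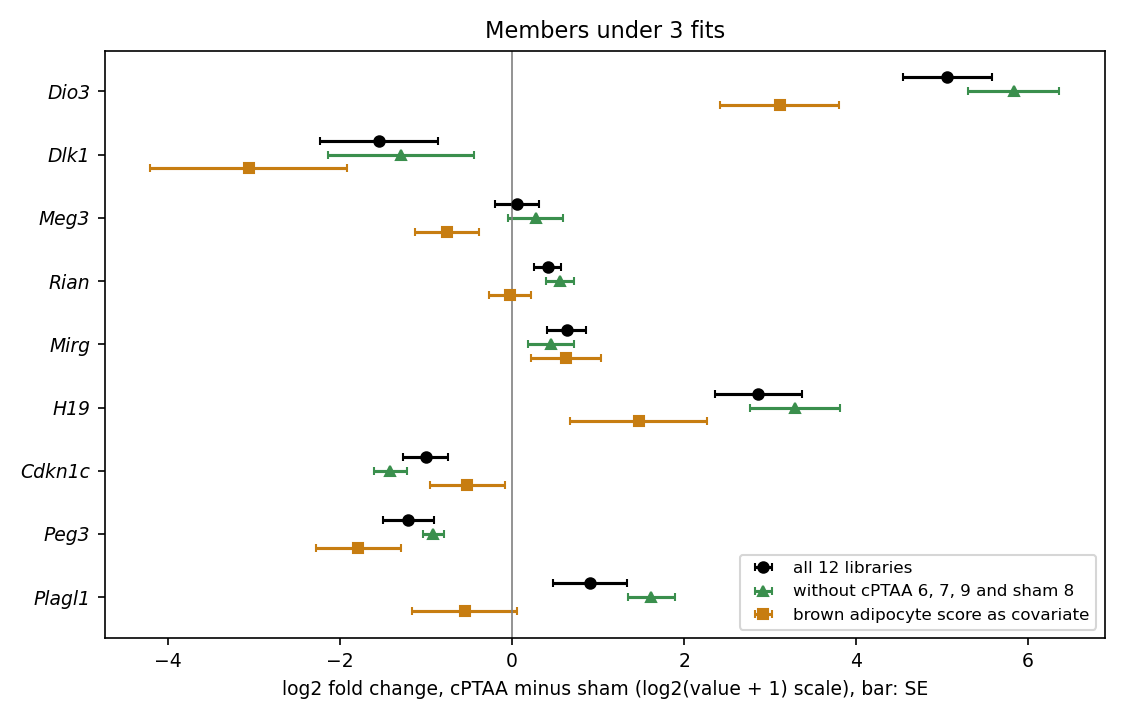
Log2 fold change, cPTAA minus sham, with SE (x axis) of the 9 tested members in 3 fits, which use all 12 libraries, leave out 4 of them (cPTAA 6, 7, 9 and sham 8) or add the brown adipocyte covariate. Dio3 is between 3.11 and 5.83 in all 3, H19 is above 0 and Peg3 and Cdkn1c below 0 in all 3, and Plagl1 goes from 1.62 to -0.55.

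Thyroid hormone action rests on the balance of activation by Dio2, inactivation by Dio3, uptake by membrane carriers and binding to the receptors Thra and Thrb. Dio2, which is abundant in brown fat, fell where Dio3 was higher. Sham libraries were at 2062 (sham 8), 3655, 4218, 4476 and 5148, and cPTAA libraries at 666 (cPTAA 12), 684, 704, 1074, 1306, 1694 and 3234 (cPTAA 4). Of the 7 aneurysms, 6 lay below every sham library (log2 fold change -1.72 ± 0.36, adjusted p = 0.0031). With brown adipocyte markers in the model its log2 fold change was -1.20 ± 0.63 and it did not pass (adjusted p = 0.242). Per kilobase of exon Dio2 still exceeded Dio3 in the aneurysms, at 230.0 ± 158 against 27.8 ± 24.8 (SD, n = 7). Dio1, the third deiodinase, was between 0 and 23.4 and was not tested.

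The aneurysms at the extremes of Dio3 were also at the extremes of the brown adipocyte score. The library with the most Dio3, cPTAA 12, had the lowest score (7.59), and the library with the least, cPTAA 9, had the highest (10.6). The remaining 5 had scores between 9.22 and 9.83 and Dio3 values between 26.6 and 71.3. The proliferation score was also highest in cPTAA 12 (8.81). The part of either in the Dio3 levels among aneurysms was not tested.

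**Figure D4:**
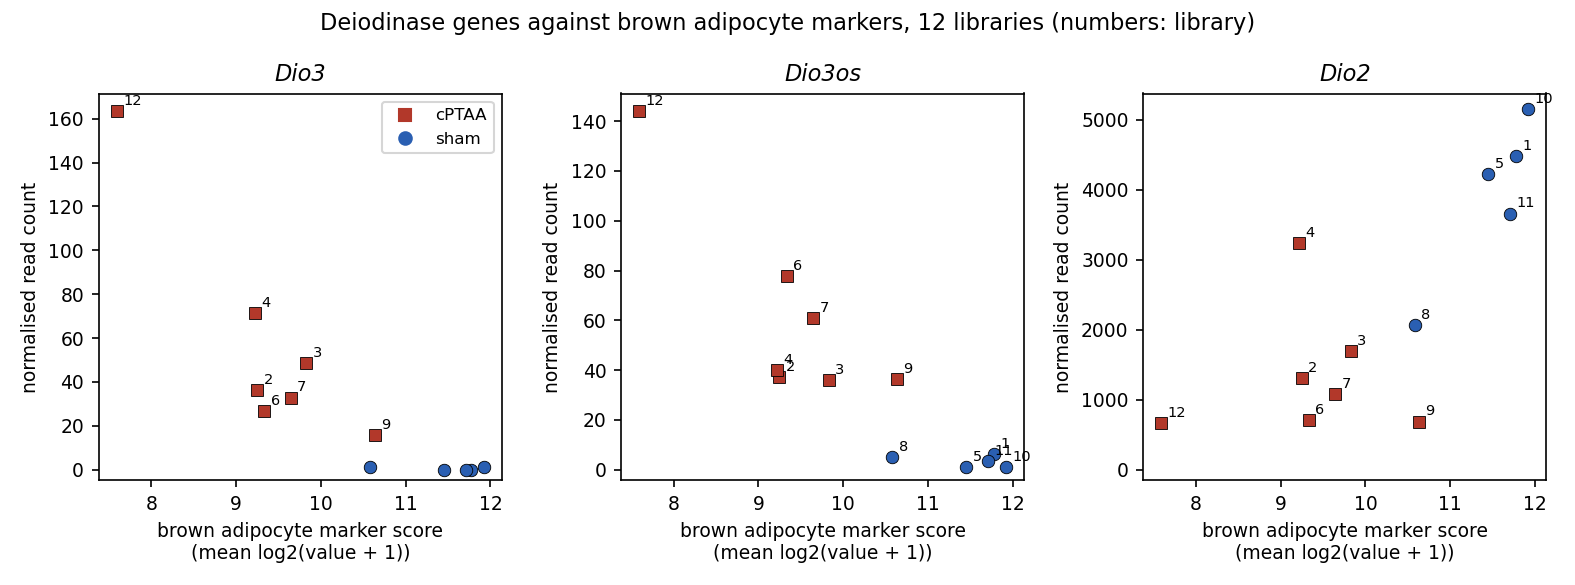
Normalised read counts of Dio3, Dio3os and Dio2 (y axes) against the brown adipocyte marker score (x axis, mean log2(value + 1)) in 7 cPTAA (squares) and 5 sham (circles) libraries, numbered where space allows. Dio3 runs from 163 in cPTAA 12 at a score of 7.59 to 15.7 in cPTAA 9 at 10.6, and sham 8, at 10.6, has a Dio3 value of 1.02.

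Of the 25 tested thyroid hormone genes, 3 rose and 7 fell (40.0%, beside 23.9% of all tested genes). The falls beside Dio2 were in the receptor Thrb (732 ± 231 in cPTAA and 1232 ± 171 in sham, -0.81 ± 0.22 on the log2 scale, adjusted p = 0.0138), its partner Rxrg (-1.71 ± 0.46, adjusted p = 0.0142), the coactivator Ncoa1 (-0.69 ± 0.21, adjusted p = 0.0276), the carrier Slc16a10 (-0.84 ± 0.16, adjusted p = 0.00136), and the hormone-responsive genes Hr (310 ± 51.7 against 686 ± 238, -1.09 ± 0.20, adjusted p = 0.00109) and Klf9 (1847 ± 675 against 3666 ± 850, -1.02 ± 0.22, adjusted p = 0.00295). The rises were in the amino acid and thyroid hormone carriers Slc7a5 (281 ± 84.9 against 70.7 ± 15.2, log2 fold change 1.94 ± 0.24, adjusted p = 4.91e-05) and Slc7a8 (1.25 ± 0.41, adjusted p = 0.038), and in Hif1a (0.45 ± 0.13, adjusted p = 0.0239). Thra did not pass, at 1486 ± 319 against 1980 ± 284 (adjusted p = 0.0582), nor did Thrsp, a thyroid-responsive gene of fat (adjusted p = 0.051). The median log2 fold change of the list was -0.43, against -0.054 for all tested genes. With brown adipocyte markers in the model only Klf9 of this list passed (-1.63 ± 0.33, adjusted p = 0.0174). In that fit Rxrg changed sign (0.34 ± 0.50) and Slc16a10 (-0.37 ± 0.24), Slc7a8 (0.49 ± 0.69) and Hif1a (0.14 ± 0.21) were smaller. Hr (-1.13 ± 0.36), Ncoa1 (-1.07 ± 0.36), Thrb (-0.61 ± 0.38) and Slc7a5 (1.40 ± 0.39) did not pass either, with larger SEs than before. Slc7a8 did not pass by edgeR or without any of cPTAA 2, 3, 4 and 12 and sham 5, 8, 10 and 11, Hif1a did not without sham 1, 8 or 11, and Ncoa1 did not without sham 1, 5, 10 or 11. The number of rises was 1 without sham 8 or sham 11. The number of falls was 11 without cPTAA 6, 7 and 9 and sham 8, where Thra, Rxrb, Thrsp and Atp2a2 were added and Rxrg was at -2.57 ± 0.32. Thrsp also passed as lower by DESeq2 and without cPTAA 3, 9 or 12. Thra also passed as lower without cPTAA 7 or 12, and Rxrb without cPTAA 9 or 12.

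Among the 31 tested genes of other imprinted domains, 1 rose and 6 fell, a share of 22.6% that is near the 23.9% of all tested genes. The median log2 fold change was -0.22. The falls were in Gnas, a signalling G protein subunit (850.1 ± 115 against 1588 ± 315, log2 fold change -0.89 ± 0.14, adjusted p = 0.000431), Ppp1r9a, a neurabin (147 ± 46.5 against 391 ± 38.7, -1.46 ± 0.22, adjusted p = 0.000192), Nap1l5 (37.3 ± 13.0 against 111 ± 20.96, -1.61 ± 0.29, adjusted p = 0.000879), Blcap (-0.75 ± 0.15, adjusted p = 0.00236), Ndn (necdin, -0.55 ± 0.14, adjusted p = 0.0108) and Zdbf2 (-1.91 ± 0.57, adjusted p = 0.0231). The rise was in Dcn, the proteoglycan decorin and a fibroblast marker (log2 fold change 0.63 ± 0.21, adjusted p = 0.0436). The Dcn call was lost when cPTAA 2, 3, 4, 6, 7 or 12 or sham 8, 10 or 11 was left out, when cPTAA 6, 7 and 9 and sham 8 were left out together (0.61 ± 0.24) and when no filter was used. Zdbf2 was near the floor, at 1.77 ± 2.33 against 8.35 ± 4.43, from 13 reads in cPTAA and 39 in sham, and the groups overlapped. Its call was lost without sham 10 or 11 and with a pseudocount of 0.1, and edgeR did not test it. Grb10 and Mest, growth regulators of the fetal network, had log2 fold changes of 0.63 ± 0.23 and 0.78 ± 0.38 (adjusted p = 0.0638 and 0.159). Grb10 passed without cPTAA 9 (0.80), without cPTAA 6, 7 and 9 and sham 8 (1.01 ± 0.14), by edgeR (0.69) and by DESeq2 (0.70), and Mest passed by DESeq2 (1.05). Sgce, a sarcoglycan, had 0.09 ± 0.12 (adjusted p = 0.629). With brown adipocyte markers in the model only Ppp1r9a of this list passed (-1.69 ± 0.38, adjusted p = 0.0262). In that fit Gnas (-0.79 ± 0.25), Ndn (-0.65 ± 0.25), Zdbf2 (-2.60 ± 1.01), Nap1l5 (-1.10 ± 0.49) and Dcn (0.59 ± 0.36) did not pass, with larger SEs than before, and Blcap was at -0.19 ± 0.20.

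Relatives and cofactors of the zinc finger members were also followed. Plag1, the growth-promoting relative of Plagl1, fell (18.4 ± 7.44 against 40.7 ± 14.3, log2 fold change -1.12 ± 0.33, adjusted p = 0.0219). Zfp57, which protects methylation at imprinted control regions, rose (70.9 ± 16.0 against 37.7 ± 22.1, log2 fold change 1.02 ± 0.32, adjusted p = 0.0291), while the corepressor Trim28 did not pass (0.27 ± 0.18, adjusted p = 0.287). Plag1 did not pass without sham 11 or without cPTAA 6, 7 and 9 and sham 8, and Zfp57 did not without cPTAA 2 or 3 or sham 1, 5, 10 or 11, nor by edgeR. Counting the cell cycle inhibitors, 4 of the 12 tested genes of this list rose and 2 fell (50%, beside 23.9% of all tested genes). With brown adipocyte markers in the model Cdkn2a (3.29 ± 0.86, adjusted p = 0.0479) and Cdkn2b (1.41 ± 0.35, adjusted p = 0.0392) passed. In that fit Cdkn2d (0.70 ± 0.25) and Plag1 (-1.91 ± 0.53) did not pass, with larger SEs than before, and Cdkn2c was at -0.27 ± 0.25 and Zfp57 at 0.19 ± 0.50.

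**Figure D5:**
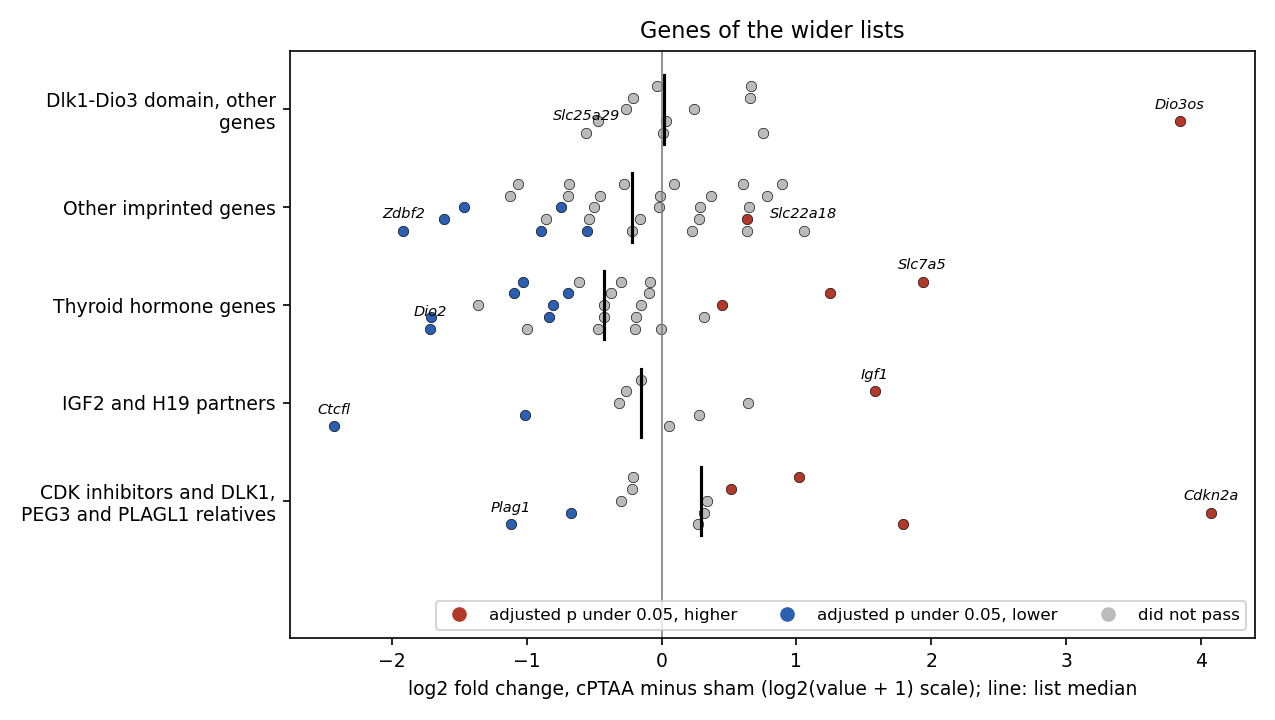
Log2 fold change, cPTAA minus sham (x axis), of each tested gene in 5 lists, with genes past an adjusted p of 0.05 in red (higher) or blue (lower), the rest in grey, and the list median as a line. Calls number 6 lower and 1 higher of 31 other imprinted genes and 7 lower and 3 higher of 25 thyroid hormone genes, where 11.1% of all tested genes are called lower and 12.9% higher, and Dio3os is the only call among the other genes of the Dlk1-Dio3 region.

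Whether the members varied together was examined within the aneurysms only. Over the 7 cPTAA libraries 11 relations were computed, 8 of Dio3 with other members and 3 among Meg3, Rian and Mirg. None passed after Benjamini-Hochberg adjustment by the exact permutation test, two-sided, and 1 had an unadjusted p under 0.05. That was Dio3 with Meg3 (r = 0.789, exact p = 0.0437, adjusted p = 0.303; rho = 0.679, exact p = 0.11, adjusted p = 0.301). Without cPTAA 9 and 12, the libraries farthest from the median of Dio3, r was -0.13. It was 0.761 without cPTAA 9 alone and 0.302 without cPTAA 12 alone, so that the relation rests mostly on cPTAA 12. Dio3 with Cdkn1c had r = -0.66 (exact p = 0.103, adjusted p = 0.303; rho = -0.64, exact p = 0.139, adjusted p = 0.306) and r = -0.69 without the same 2 libraries. Dio3 with Plagl1 had r = 0.676 (exact p = 0.0956, adjusted p = 0.303; rho = 0.679, exact p = 0.11, adjusted p = 0.301) and r = 0.223 without them. The relation changed sign without the 2 farthest libraries in 4 of the 11.

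Over all 12 libraries the protein-coding genes whose pattern was most like that of Dio3, among 14162 compared, were Marcks (r = 0.977), Pde1b (0.976), Ddah1 (0.976), Myo7a (0.976) and Cbfb (0.975), and that likeness includes the difference between groups. Marcks is a substrate of protein kinase C, and Ddah1 degrades inhibitors of nitric oxide synthase. Ddah1 was at 1021 ± 810 against 33.1 ± 9.47. Within the 7 cPTAA libraries the closest were Stt3b (r = 0.992), Hps3 (0.992), 9930021J03Rik (0.987), Tead1 (0.982) and Foxm1 (0.981), with 0 genes shared between the 2 sets of 5. Foxm1, a transcription factor of dividing cells, was at 65.2 ± 39.6 against 12.04 ± 6.66. Dio3os had r = 0.925 with Dio3 over the 12 libraries and 0.578 within the aneurysms. These are descriptions of a ranking over many genes and carry no p.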

How the data were processed

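RNA from 7 cPTAA and 5 sham proximal thoracic aortas was sequenced after oligo-dT capture and random-hexamer priming, per the labels' protocols. HISAT2 2.0.5, featureCounts 1.5.0-p3, StringTie and the build GRCm39 are named in the submitters' processing notes. The deposited signal per gene is, checked on the values, a whole number of reads divided by a factor per library (100% whole within 0.02 reads); no source used here states the scaling method or strand setting.

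The test was limma 3.58.1 (R 4.3.3, mean-variance trend) on log2(value + 1) for the 21415 genes that reached 1 in 5 or more libraries, with p-values adjusted by Benjamini-Hochberg over all of them and a threshold of 0.05. Alternatives were edgeR 4.0.16 and DESeq2 1.42.0 on recovered reads (edgeR called 2622 genes higher and 2261 lower), TMM scaling, no filter, a pseudocount of 0.1, a brown adipocyte covariate, and leaving out libraries. Relations used exact permutation over pairings for members with a median of at least 5. The limma and edgeR fits were also run on simulated data, whose outcome is not given here. The closest pair of libraries in a group had a chi-square per degree of freedom of 18.8, more than counting error gives. No pair was therefore treated as 1 library sequenced again, and each was counted once. That value cannot show whether each library came from a different mouse. Intervals cover counting error only.

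The members and lists were chosen with earlier results of these data known. Any gene of the members, the lists and the 5 genes most like Dio3 could be named. Exon lengths, biotypes and overlaps came from GENCODE M21 and windows and miRNAs from RefSeq, both on GRCm38, another build than the authors'. Per-kilobase levels use the union of exons. Of the listed symbols, Wars1 was matched as Wars.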

Additional observations from a re-analysis of the deposited data

Results flagged for a closer look

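In 20 group checks (10 genes in 2 groups), 5 had a library far from the rest of its group by Dixon's test at 95%, where chance gives about 1 in 20 groups. Among aneurysms cPTAA 12 was far above the next library for Dio3 (163.4 against 71.3), Dlk1 (26.8 against 9.86) and Meg3 (1993 against 1245). Among sham libraries, sham 8 was far above the next for H19 (143.6 against 49.7), and sham 5 held the only Igf2 value above 0 (1.95, from 2 reads). With 4 of 5 values at 0 the Igf2 outcome was fixed by construction, so it does not count against chance. The flags for Dio3, Dlk1 and Meg3 come from the same library, cPTAA 12, so the checks are not independent. Dixon's test was also run on values that were not log-transformed. Nothing is therefore read from the count of flags beside chance. Without cPTAA 12 the log2 fold change of Dio3 was 4.74, that of Dlk1 -1.91 and that of Meg3 -0.10.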

How the results depend on the processing

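Of the settings tried, the brown adipocyte covariate changed the counts of calls most. It left 584 genes higher and 297 lower (66.3% of calls higher, against 53.7%), 1 member higher and 0 lower, and 2 genes of the wider lists higher and 3 lower, where the median SE was also larger. It turned the log2 fold changes of Rxrg (0.34), Grb10 (-0.27), Igf2r (-0.19), Mest (-0.64), Thrsp (0.87) and Rtl1 (-0.31). Among the members it turned Plagl1 (0.91 to -0.55), Meg3 (0.05 to -0.76) and Rian (0.41 to -0.02). DESeq2 called 4 members higher. Without cPTAA 6, 7 and 9 and sham 8, 4 members and 16 genes of the wider lists were higher, and Igf1r was at 0.10. The cause was not tested in these cases. Leaving out 1 library at a time gave 2213 to 3156 genes higher and 1675 to 2818 lower, 2 to 4 members higher and 2 to 3 lower, and 6 to 13 genes of the wider lists higher and 14 to 21 lower. Of the relations within cPTAA, 0 passed in any setting. Their r ranged, with 1 library left out, from -0.62 to 0.553 for Dio3 and Dlk1 (-0.62 without cPTAA 12), from -0.32 to 0.0692 for Dio3 and Mirg, from -0.75 to 0.594 for Dio3 and H19 (-0.75 without cPTAA 12) and from -0.18 to 0.136 for Meg3 and Mirg. Dio3 and Dlk1 had r = -0.00591 with a pseudocount of 0.1, and Meg3 and Mirg had r = -0.0257 with TMM scaling. Counting error limits Dio3 in sham and Igf2 in all libraries. No paired analysis was possible because the groups share no replicate number.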
